A study of Mus musculus with 28 samples.

Results

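The comparison described here is the change of unstimulated macrophages between 3.5 h and 16 h of culture. Its members are the 10 cultures labelled as controls, of 28 cultures in all, and they were chosen by these labels alone: 5 were harvested at 3.5 h (Control 3.5 h) and 5 at 16 h (Control 16 h). The cells were bone marrow-derived macrophages (BMDMs), obtained by the study from C57/B6JB mice aged 8 to 12 weeks and grown with the growth factor M-CSF for 7 days. Every culture of the series spent a night in RPMI with serum, penicillin, streptomycin and M-CSF, was washed in PBS, and then received fresh medium with 1 mM CaCl2. The Control cultures were given PBS alone, whereas 5 cultures per time received plasma-derived von Willebrand factor (VWF, 10 µg/ml) and 4 cultures per time received bacterial lipopolysaccharide (LPS, 100 ng/ml). Whether the fresh medium held M-CSF, and whether the replicate numbers stand for separate mice, is not given in the sources used here, so the p-values measure the spread between these cultures. Time since the wash and time in the same medium cannot be told apart in this design.

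BMDMs are non-transformed macrophages that divide while M-CSF, the ligand of the receptor Csf1r, is present. Handling, washing and fresh serum are known to raise immediate early genes and genes of the NF-κB pathway for a short time. NF-κB is held in the cytoplasm by IκBα, the product of Nfkbia, and it drives transcription of Nfkbia and of Tnfaip3 (A20), which in turn shut it off. Entry into S phase depends on E2F factors, which drive the genes of the replicative helicase, of the DNA polymerases and of nucleotide synthesis.

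Total counts of the 10 cultures lay between 41131209 and 72349526, and 8333 genes passed the expression filter of at least 10 TPM (counts scaled to gene length and library size) in at least 1 of them. Levels are given below as CPM (counts relative to library size, scaled by TMM factors), as mean ± SD of 5 cultures per group, and the direction of each log2 fold change is Control 16 h over Control 3.5 h. Control 16 h replicate 5 stood apart from the rest. It held 16690 genes with at least 1 count against 19097 to 20593 in the other 9 cultures, and ribosomal protein genes took 9.52% of its counts against 4.26% to 6.86%. Its log CPM correlated at 0.878 to 0.899 with the other Control 16 h cultures, which correlated at 0.986 to 0.994 with each other. Its levels also followed gene length. Relative to the other Control 16 h cultures, its median log2 difference was 0.76 over the 524 genes with under 1000 bases of exon and -0.26 over the 1097 genes with more than 8000 bases. Control 3.5 h replicate 4 leaned the other way, from -0.49 to 0.33. Across the same bins the median time change went from 0.32 to -0.27 with all 10 cultures and from 0.02 to -0.24 without Control 16 h replicate 5. Results are therefore given with and without that culture.

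**Figure D1:**
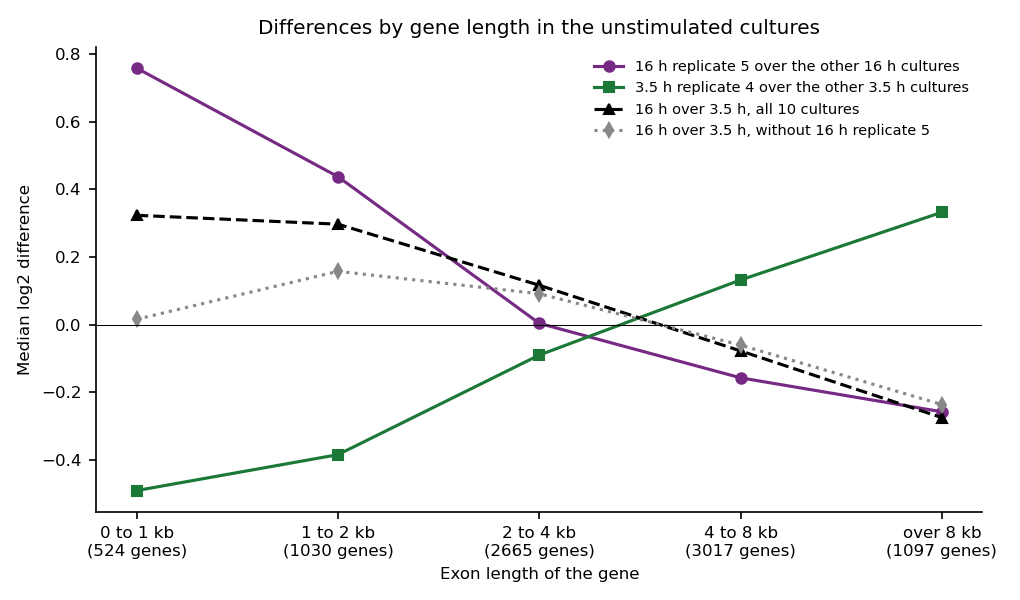
Median log2 difference (vertical axis) over genes grouped by exon length (horizontal axis, with the number of genes) for Control 16 h replicate 5 against the other Control 16 h cultures, Control 3.5 h replicate 4 against the other Control 3.5 h cultures, and the time change with all 10 cultures and without Control 16 h replicate 5. The first line falls from 0.76 to -0.26 and the second rises from -0.49 to 0.33, while the time change without Control 16 h replicate 5 stays within 0.16 and -0.24.

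The cultures carried the defining markers of macrophages, and all 11 marker genes passed the filter. Of these, 1 was called higher and 1 lower at 16 h, and 8 had a log2 fold change below 0 (median -0.42). Without Control 16 h replicate 5, 1 was called higher and 0 lower (median -0.29). Csf1r was at 1183 to 1927 CPM at 3.5 h and 549 to 1086 CPM at 16 h, Adgre1 (F4/80) at 867 to 1252 and 492 to 948 CPM, and the lysosomal glycoprotein gene Cd68 at 832 to 1173 and 216 to 890 CPM. The lowest of these values at 16 h belonged to Control 16 h replicate 5, whose 11 markers summed to 6902 CPM against 15887 to 18206 CPM in the other 4 cultures and 11011 to 15696 CPM at 3.5 h. Markers of T cells (Cd3e, Cd3d, Cd3g, Cd8a, Trac) summed to at most 0.929 CPM and erythroid markers to at most 0.421 CPM in every culture. Stromal markers were present: the 6 genes Col1a1, Col1a2, Col3a1, Pdgfra, Dcn and Lum summed to 53.2 to 317 CPM at 3.5 h and to 17.6 to 184 CPM at 16 h, or 40.1 to 184 CPM without Control 16 h replicate 5. Of the neutrophil markers S100a8 was called higher at 16 h, at 2.93 to 4.59 against 7.15 to 18.9 CPM, while Ly6g was at or under 0.0350 CPM throughout; the other marker of that list that was tested, S100a9, was at 0.245 to 4.33 and 0.234 to 4.34 CPM (log2 fold change -0.34 ± 0.87, not called). The 1 tested dendritic cell marker, Batf3, was called higher (1.27 ± 0.46) with 15.1 CPM in Control 16 h replicate 5 against 2.94 to 4.30 CPM in the other 4, and it did not pass the filter without that culture. The 1 tested B cell marker, Cd79b, was called higher as well (1.04 ± 0.26) and was not called without that culture (0.78 ± 0.18). The part of these cell types in the results was not tested.

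Between 3.5 h and 16 h, 757 of 8333 genes (9.08%) changed at an adjusted p under 0.05 and an absolute log2 fold change over 1 in edgeR's quasi-likelihood test. Of these, 333 were higher at 16 h (4.0% of the genes tested) and 424 were lower (5.09%). These are the shares of all genes to set beside the counts of each gene list below. The larger changes were mostly decreases, since 72 of the 93 genes with an absolute log2 fold change over 2 were lower at 16 h. The 5 and 5 cultures did not overlap in 702 of the 757 genes, and 472 genes were called whichever single culture was left out. Calling a gene already selects for groups that lie apart, so the 702 are no separate support for the calls. The median log2 fold change was 0.03 over all genes tested, and its absolute median over the called genes was 1.32. Without Control 16 h replicate 5, 666 genes of 8237 were called (267 higher and 399 lower), of which 579 were called in the same direction with all 10 cultures. That is 231 of the 333 higher genes and 348 of the 424 lower genes.

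**Figure D2:**
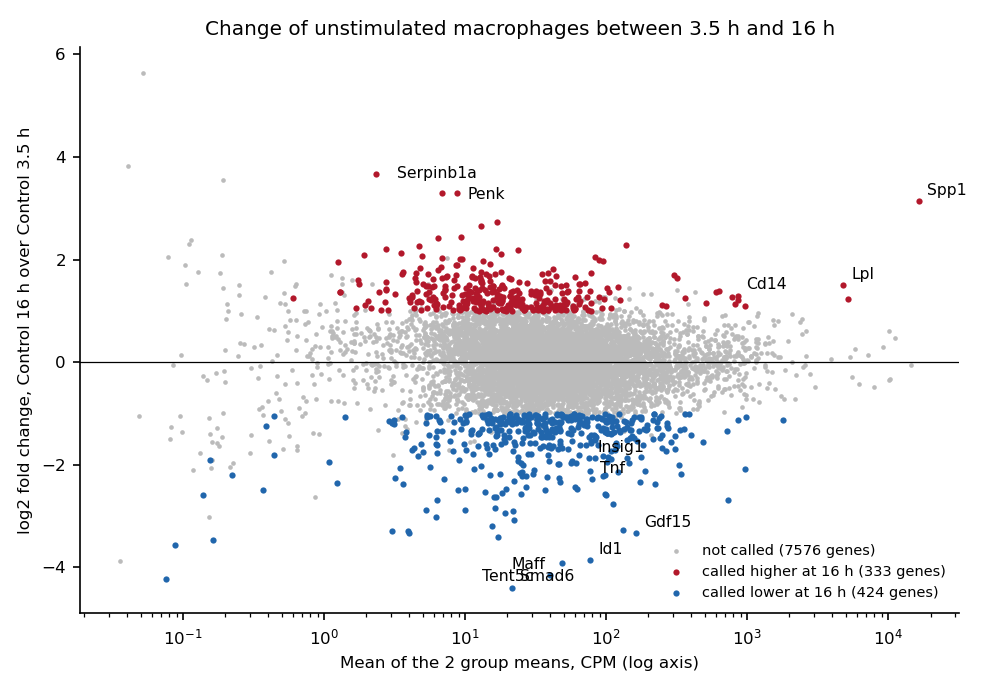
Each point is 1 of the 8333 genes tested, with the mean of both group means in CPM on a log axis (horizontal) and the log2 fold change of Control 16 h over Control 3.5 h (vertical). The 333 genes called higher and 424 called lower are coloured. Among the labelled genes the decreases reach -4.39, for Smad6, and the increases 3.30, for Penk and Serpinb1a.

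The gene with the largest decrease among those with at least 1 CPM in the higher group and no overlap was Smad6, an inhibitor of BMP signalling. It was at 36.3, 40.2, 42.2, 41.6 and 44.4 CPM in the 5 cultures at 3.5 h and at 2.90, 2.60, 1.95, 1.08 and 1.1 CPM at 16 h, a log2 fold change of -4.39 ± 0.29 (SE; edgeR, adjusted p = 3.58e-06). Every culture at 16 h was thus far below the lowest at 3.5 h, and the value without Control 16 h replicate 5 was -4.24 ± 0.24. Id1, a dominant-negative helix-loop-helix factor and a classical BMP target, fell from 144 ± 28.7 to 9.89 ± 3.98 CPM (log2 fold change -3.85 ± 0.29). Tent5c, a cytoplasmic poly(A) polymerase, fell from 76.1 ± 16.0 to 4.31 ± 1.17 CPM (-4.14 ± 0.22), and Maff, a small Maf factor of the bZIP family, from 90.8 ± 14.2 to 5.99 ± 2.17 CPM (-3.92 ± 0.26). Absence of overlap was a condition for choosing these 4 genes, and they were called whichever culture was left out.

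Secreted and surface proteins made up much of the rest of the 10 largest decreases. Gdf15, a stress-induced member of the TGF-β family, was at 351, 410, 244, 252 and 216 CPM at 3.5 h and at 30.8, 25.6, 20.5, 26.8 and 42.2 CPM at 16 h (log2 fold change -3.33 ± 0.25). Pdgfa, which encodes the growth factor PDGF-A, fell from 240 ± 39.7 to 24.8 ± 5.06 CPM (-3.27 ± 0.18), with the reservation that 26.1% of its exon sequence overlaps the gene 6330403L08Rik. Olr1, the scavenger receptor LOX-1 for oxidized LDL, fell from 31.2 ± 10.2 to 2.91 ± 1.52 CPM (-3.41 ± 0.41). Cxcl10, a chemokine for T cells, was at 3.12 to 11.4 CPM at 3.5 h and at 0.599 to 0.864 CPM at 16 h (-3.32 ± 0.40). The other members of this group were the long non-coding RNA genes Gm16907 (-3.30 ± 0.75) and Gm14221 (-3.29 ± 0.71), both at 0 counts in Control 16 h replicate 5.

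Spp1, which encodes the secreted phosphoprotein osteopontin, was the most abundant of the 10 genes with the largest increases. It was at 3445, 3828, 3138, 3582 and 2988 CPM at 3.5 h and at 30314, 30578, 23589, 27144 and 36790 CPM at 16 h, a log2 fold change of 3.13 ± 0.15 (edgeR, adjusted p = 1.19e-06). Per length, its mean level went from 6696 to 52186 TPM. All 5 cultures at 16 h lay several-fold above all 5 at 3.5 h, and without Control 16 h replicate 5 the change was 3.04 ± 0.11. Of its exon sequence, 18.8% overlaps Gm42793.

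The other large increases were at lower levels. Serpinb1a, an inhibitor of neutrophil serine proteases, was at 1.09 to 1.76 CPM at 3.5 h and at 9.36 to 16.1 CPM at 16 h (log2 fold change 3.30 ± 0.20). Penk, the precursor of the enkephalin opioid peptides, went from 1.63 ± 0.497 to 16.0 ± 1.71 CPM (3.30 ± 0.23), and 14.3% of its exon sequence overlaps A830012C17Rik. Absence of overlap between the times was a condition for choosing these genes. Clec4n, which encodes the fungal pattern receptor dectin-2, rose from 47.1 ± 11.5 to 228 ± 77.1 CPM (2.28 ± 0.28), with Control 16 h replicate 5 lowest of its group at 108 CPM. Ccl24 (eotaxin-2), an eosinophil chemokine that marks alternatively activated macrophages, rose from 2.01 ± 0.515 to 10.8 ± 2.89 CPM (2.43 ± 0.25). The remaining genes of this group were Rnf144b (2.73 ± 0.21), Gpr35 (2.66 ± 0.38), Ppm1j (2.45 ± 0.20), Lrr1 (2.27 ± 0.35) and Car5b, a mitochondrial carbonic anhydrase (2.22 ± 0.16). Lrr1 was at 15.3 CPM in Control 16 h replicate 5 and at 5.40 to 6.49 CPM in the other 4, and its change was 1.87 ± 0.21 without that culture.

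**Figure D3:**
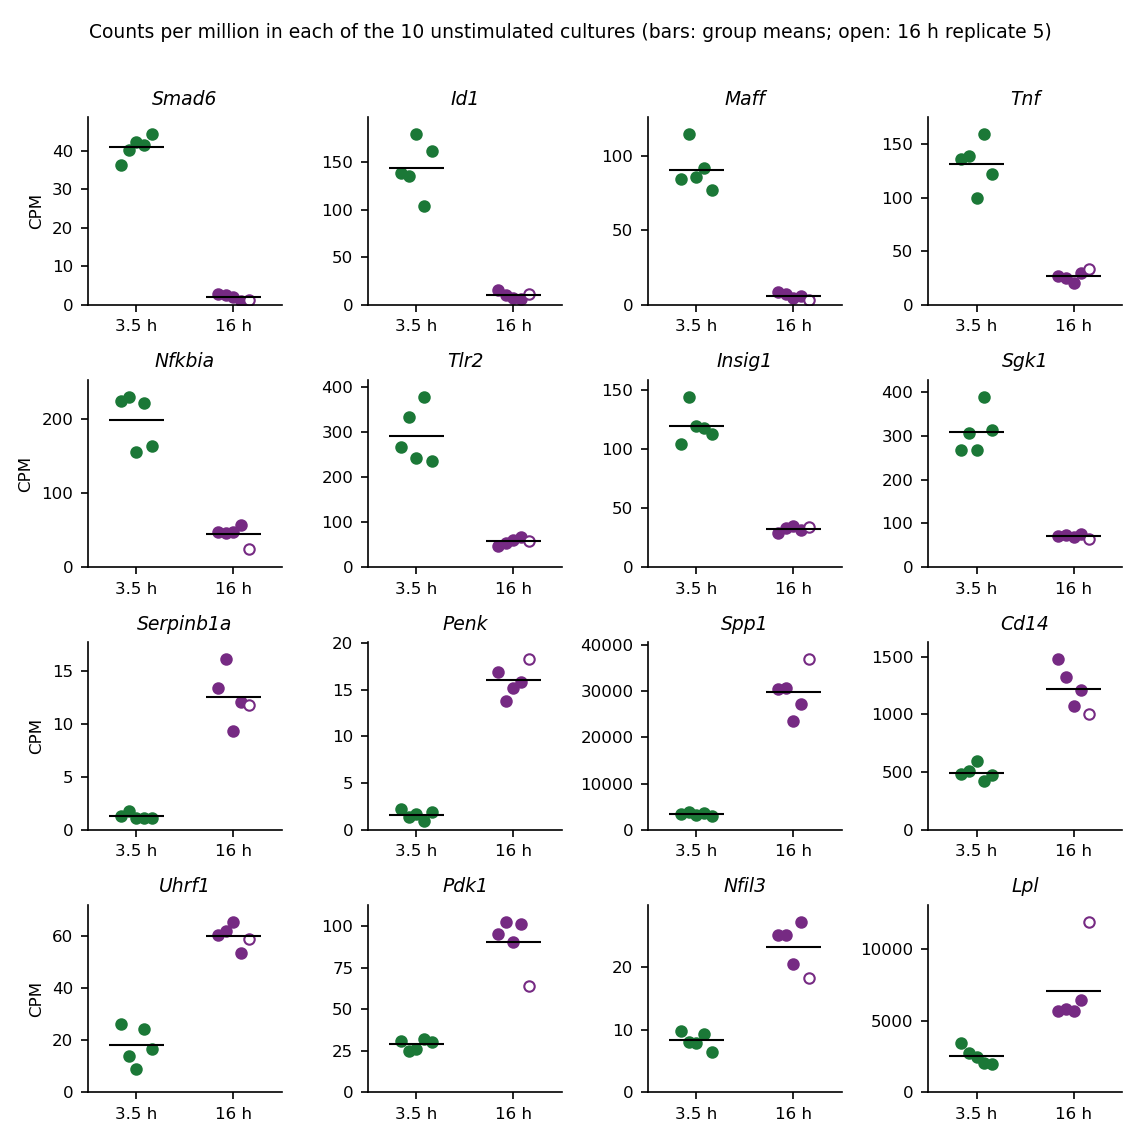
CPM (vertical axes, from 0) of 16 genes in each of the 5 Control 3.5 h and 5 Control 16 h cultures; bars are group means and the open symbol is Control 16 h replicate 5. For each of the 16 genes the points of the 2 times do not overlap, and in Lpl and Pdk1 the open symbol lies away from the other 4 cultures at 16 h.

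Most tested genes of DNA replication and nucleotide synthesis were called higher at 16 h. Of 42 listed genes 36 passed the filter, 23 were called higher and none lower (34 and 1 at an unadjusted p under 0.05 in edgeR; DESeq2 also called 23 and 0), and their median log2 fold change was 1.11 against 0.03 for all genes. Without Control 16 h replicate 5 the counts were 24 and 0 and the median 1.09. Mcm5 and Mcm7, subunits of the replicative helicase, are shown with their promoters because both carry E2F-type motifs. The windows are the RefSeq promoters of GRCm38.p6, 250 bases before to 50 after the start, 5′ to 3′ on the gene's strand, with every match to TTTCCCGC, TTTGGCGC or TTTCGCGC on either strand in capitals; they lie at chr8:75109259-75109558 (plus strand) and chr5:138171834-138172133 (minus strand).
Mcm5: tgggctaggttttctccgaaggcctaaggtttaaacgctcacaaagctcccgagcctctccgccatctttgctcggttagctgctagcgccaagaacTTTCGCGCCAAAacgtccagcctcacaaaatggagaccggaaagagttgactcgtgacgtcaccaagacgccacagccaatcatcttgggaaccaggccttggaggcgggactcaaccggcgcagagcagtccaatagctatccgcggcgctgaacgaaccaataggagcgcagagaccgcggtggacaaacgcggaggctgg
Mcm7: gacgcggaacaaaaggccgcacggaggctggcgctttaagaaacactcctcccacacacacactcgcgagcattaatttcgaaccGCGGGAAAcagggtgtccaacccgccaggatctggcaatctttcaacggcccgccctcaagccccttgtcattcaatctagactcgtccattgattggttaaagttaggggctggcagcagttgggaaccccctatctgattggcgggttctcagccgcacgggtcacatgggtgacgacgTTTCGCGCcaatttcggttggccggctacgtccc
In Mcm5 a pair of motifs overlaps on opposite strands, from 153 and 149 bases before the start, and in Mcm7 they begin 165 bases before and 16 bases after it. At least 1 of these motifs was present in 13 of the 38 windows of the 33 list genes that had one (34.2%), in 3.65% of the windows of all genes tested and in 1.84% of all 32851 windows. For the called list genes it was 5 of 24 windows (20.8%), and for all genes called higher 24 of 318 (7.55%). These are matches of letters and not measured binding.

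Mcm5 was at 46.4, 28.7, 21.0, 38.8 and 30.8 CPM at 3.5 h and at 96.9, 97.5, 101, 86.6 and 91.3 CPM at 16 h, a log2 fold change of 1.52. Mcm7 was at 19.1 to 37.6 CPM at 3.5 h and at 51.6 to 86.6 CPM at 16 h (1.35). In CPM Mcm5 was more variable at 3.5 h and Mcm7 at 16 h. At 3.5 h replicate 1 was highest for both genes, and neither overlapped between the times. Uhrf1, which keeps DNA methylation through replication, had the largest change of the list, at 9.0 to 26.2 CPM against 53.6 to 65.5 CPM (1.74 ± 0.26), and 7.30% of its windows of 100 bases also occur in Gm5648. Cdc45, which activates the helicase, was at 6.63 ± 1.84 and 21.7 ± 3.21 CPM (1.71 ± 0.19). Mcm10 went from 7.63 ± 2.69 to 25.2 ± 7.32 CPM (1.72 ± 0.26) but passed the filter through Control 16 h replicate 5 alone and was not tested without it. The cyclin E genes Ccne1 (1.22) and Ccne2 (1.51), whose products act with Cdk2 at the start of S phase, and E2f1 (1.14) were also called higher. Of the exon sequence of Mcm7 12.6% overlaps Ap4m1, and of that of Ccne2 17.4% overlaps Ints8.

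Fewer genes of mitosis and G1 were called. Of 30 mitosis genes tested 4 were called higher and none lower, with a median of 0.62: Mybl2, a factor of late cell cycle genes (1.48 ± 0.29), the kinetochore gene Ndc80 (1.22 ± 0.16), Birc5 or survivin (1.15 ± 0.41) and the checkpoint gene Mad2l1 (1.01, and 0.95 without Control 16 h replicate 5, not called). Birc5 was at 249 CPM in Control 16 h replicate 5 and at 61.6 to 87.4 CPM in the other 4 cultures, and without that culture its change was 0.57 ± 0.21 and it was not called. Of the windows of Mybl2, 25.9% also occur in Gm3320. Of 20 genes of G1 control 4 were called higher and 1 lower. The 4 were Rbl1 (p107), which restrains E2F (1.25 ± 0.16), Ccng2, a cyclin of resting cells (1.18 ± 0.23), Mxd4, an antagonist of Myc (1.11 ± 0.16), and the kinase gene Cdk2 (1.01 ± 0.16). Ccng2 (0.95 ± 0.15) and Cdk2 (0.88 ± 0.11) were not called without Control 16 h replicate 5, which leaves 2 higher and 1 lower. The gene called lower was Ccnd1, the D-type cyclin induced by M-CSF, at 126 to 315 CPM against 21.3 to 109 CPM (-1.51 ± 0.40, with 23.4% of its exons overlapping LTO1). Ccnd1 was not called when the replicate number was added to the fit as a block. In bulk RNA a larger share of cells in S phase and more RNA per cell cannot be told apart.

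Of the inhibitors and targets of NF-κB some were called lower at 16 h and none higher. Of 24 listed feedback genes 20 passed the filter, 6 were called lower and none higher (16 and 1 at an unadjusted p under 0.05 in edgeR; DESeq2 also called 6 and 0), with a median log2 fold change of -0.79, and the counts were the same without Control 16 h replicate 5 (median -0.75). The promoters of Nfkbia, Tnfaip3 and of the cytokine gene Tnf are shown because their windows hold the letters GGANNTTCC on either strand, in capitals. They lie at chr12:55492598-55492897, chr10:19015361-19015660 and chr17:35201958-35202257, all on the minus strand in the same RefSeq set.
Nfkbia: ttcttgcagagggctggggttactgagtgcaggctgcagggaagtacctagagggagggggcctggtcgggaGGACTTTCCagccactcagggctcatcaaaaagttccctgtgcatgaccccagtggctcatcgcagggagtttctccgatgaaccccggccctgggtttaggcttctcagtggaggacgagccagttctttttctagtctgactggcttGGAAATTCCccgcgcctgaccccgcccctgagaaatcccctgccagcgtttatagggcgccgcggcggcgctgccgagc
Tnfaip3: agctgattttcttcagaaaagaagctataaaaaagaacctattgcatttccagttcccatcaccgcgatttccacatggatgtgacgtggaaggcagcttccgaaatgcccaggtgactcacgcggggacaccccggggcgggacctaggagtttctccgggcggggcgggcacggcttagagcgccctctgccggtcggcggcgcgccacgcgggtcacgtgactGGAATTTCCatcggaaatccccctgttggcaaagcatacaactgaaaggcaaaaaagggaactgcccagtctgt
Tnf: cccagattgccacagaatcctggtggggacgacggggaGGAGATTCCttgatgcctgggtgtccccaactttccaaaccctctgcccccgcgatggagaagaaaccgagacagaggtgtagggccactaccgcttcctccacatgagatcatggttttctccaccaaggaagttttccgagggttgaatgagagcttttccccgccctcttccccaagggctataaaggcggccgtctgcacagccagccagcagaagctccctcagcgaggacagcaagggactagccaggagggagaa
The matches begin 178 and 29 bases before the start in Nfkbia, 24 before it in Tnfaip3 and 212 before it in Tnf. Of 26 windows of the 20 list genes with one, 8 held the letters (30.8%), as did 3 of 5 windows of the called members (60.0%), against 4.26% of all windows, 5.02% of those of all genes tested and 6.62% of the windows of all genes called lower. Windows were also searched for TCACNCCAC in the cholesterol list (1 of 20 windows, against 1.14% of those of all genes tested and 1.24% of all) and for TGACGTCA in the immediate early list (3 of 35, against 3.14% and 1.79%).

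Nfkbia was at 224, 230, 155, 222 and 163 CPM at 3.5 h and at 47.0, 45.9, 48.0, 57.7 and 25.2 CPM at 16 h, a log2 fold change of -2.15 ± 0.21 (edgeR, adjusted p = 4.38e-05). Tnfaip3 was at 77.7 to 148 and 7.29 to 24.8 CPM (-2.43 ± 0.32). For both genes Control 16 h replicate 5 was the lowest culture, and without it the changes were -2.0 ± 0.14 and -2.22 ± 0.20. Of the other members Icam1, an adhesion molecule, fell from 73.6 ± 24.6 to 23.1 ± 12.1 CPM (-1.67 ± 0.51, with 11.7% of its exons overlapping Gm47079), and Bcl3 (-1.56), Relb (-1.38) and Nfkb1 (-1.25), which encode an atypical IκB protein and NF-κB subunits, were called lower. With the replicate number as a block Icam1 was not called.

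Among cytokines and inflammatory enzymes 15 of 28 genes passed the filter, of which 8 were called lower and 1 higher. The median was -1.19, or -1.21 without Control 16 h replicate 5, with the same counts. Tnf, the gene of TNF-α, was at 136, 139, 99.2, 159 and 122 CPM at 3.5 h and at 27.2, 24.6, 19.9, 29.5 and 33.2 CPM at 16 h, a log2 fold change of -2.28 ± 0.17 (edgeR, adjusted p = 7.11e-06). The groups were far apart, and the change was -2.37 ± 0.16 without Control 16 h replicate 5. Lif, a cytokine of the IL-6 family, fell from 9.40 ± 4.50 to 1.26 ± 0.920 CPM (-2.89 ± 0.75), and Ptgs2, the inducible cyclooxygenase, from 23.6 ± 14.2 to 4.08 ± 2.05 CPM (-2.52 ± 0.47). Osm (-2.10), Hbegf (-2.08), Vegfa (-1.37), Pdgfb (-1.30) and the anti-inflammatory Il10 (-1.19) were the other genes called lower.

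Il1b went the other way, at a low level. It was at 0.753, 1.05, 0.873, 1.43 and 0.457 CPM at 3.5 h and at 0.979, 1.64, 1.82, 6.67 and 2.11 CPM at 16 h (log2 fold change 1.52 ± 0.53; edgeR, adjusted p = 0.0391). The groups overlapped, and the highest value came from Control 16 h replicate 4. Il1b passed the filter through that culture alone and was not tested without it. Of 10 fits that left out 1 culture, 5 called it higher. Il6 and Nos2, the inducible nitric oxide synthase, did not pass the filter: Il6 was at 0 counts in 4 cultures at 16 h and at 0.340 CPM in Control 16 h replicate 4, and Nos2 was at 0 in 4 of 5 at 16 h and in 3 of 5 at 3.5 h. Egln3, a prolyl hydroxylase of the hypoxia pathway, was also under the filter, at 1.01 to 2.14 and 1.51 to 4.87 CPM.

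The 22 listed chemokine genes had 15 tested members, 4 lower and 1 higher (median -0.74). Besides Cxcl10, the members called lower were Ccl12 (log2 fold change -2.37 ± 0.31), Cxcl2 (-1.07 ± 0.31) and Ccl3 (-1.05 ± 0.20). Ccl3 (MIP-1α) was at 344, 516, 251, 290 and 244 CPM at 3.5 h and at 177, 166, 133, 165 and 153 CPM at 16 h, without overlap. Its call was lost with the replicate number as a block. Ccl4 (MIP-1β) was at 117 to 260 CPM and 66.3 to 194 CPM (-0.74 ± 0.33, not called), and its highest value at 16 h was that of Control 16 h replicate 5, without which it was called at -1.11 ± 0.23. Ccl2, the monocyte chemoattractant, was at 102 to 213 and 82.3 to 190 CPM (-0.20 ± 0.26; edgeR, adjusted p = 0.549) and showed no detectable change. Cxcl2 was not called without Control 16 h replicate 5 (-0.94 ± 0.31), and the list then had 6 members called lower and 1 higher.

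Immediate early genes respond to growth factors and stress within minutes. Of 30 tested, 12 were called lower at 16 h and 1 higher (median -0.71). Without Control 16 h replicate 5 the counts were 13 and 1 (median -0.67). Besides Maff, those with the largest changes were Egr1 (-2.89 ± 1.00), the orphan nuclear receptor gene Nr4a3 (-2.55 ± 0.45) and the MAP kinase phosphatase gene Dusp2 (-2.47). Fos was at 129, 125, 105, 256 and 238 CPM at 3.5 h and at 48.7, 44.4, 34.9, 58.5 and 43.3 CPM at 16 h (-1.89), and Junb at 437 to 583 and 99.9 to 181 CPM (-1.99). Egr1 was uneven within the early group, at 85.0 and 90.4 CPM in replicates 4 and 5 and at 4.84 to 8.53 CPM in the other 3, overlapped the late group, and was called in 4 of 10 fits that left out 1 culture. Klf2, a factor that restrains macrophage activation, rose from 12.2 ± 2.59 to 36.1 ± 21.5 CPM (1.57 ± 0.34, and 1.12 ± 0.17 without Control 16 h replicate 5, where it was at 73.9 CPM). Of 16 genes responsive to glucocorticoids and serum 3 were called, all lower, among them the kinase gene Sgk1, from 309 ± 49.6 to 71.1 ± 5.02 CPM (-2.12 ± 0.12).

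Pattern receptors and surface receptors were called in both directions, with higher calls near the share of all genes. Higher calls were 5.56% of the Toll-like list and 3.85% of the phagocytic list, against 4.0% of all genes tested. Lower calls were 11.1% and 19.2%, against 5.09%. Tlr2, the receptor for bacterial lipopeptides, was at 266, 333, 242, 378 and 237 CPM at 3.5 h and at 48.2, 54.2, 60.7, 66.5 and 58.4 CPM at 16 h (log2 fold change -2.34 ± 0.16; edgeR, adjusted p = 3.63e-06). Cd14, which hands LPS to the Tlr4 complex, rose in the same cultures from 497 ± 63.6 to 1217 ± 191 CPM (1.30 ± 0.13), also without overlap. Of 18 genes of Toll-like receptors and adaptors 3 were called in all, the third being Tlr9 (-1.84 ± 0.62, called in 4 of 10 fits that left out 1 culture). Tlr9 passed the filter through 1 Control 3.5 h culture alone and was not tested without it. Of 26 phagocytic and scavenger receptors 5 were called lower and 1, Clec4n, higher; the mannose receptor gene Mrc1 fell from 579 ± 83.8 to 217 ± 24.3 CPM (-1.41 ± 0.12), and Gas6, a bridge to apoptotic cells, from 470 ± 33.9 to 145 ± 23.3 CPM (-1.70 ± 0.11).

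Of 20 chemokine, purine and lipid receptors 6 were called, all lower. They included Gpr84, a receptor for medium-chain fatty acids (log2 fold change -3.01 ± 0.40, with 39.5% of its exons overlapping Gm49482), Cxcr4 (-1.74 ± 0.10) and P2ry12 (-1.68 ± 0.49). Among the 9 tested M2 markers Ccl24 rose while Mrc1, Ptgs1 (-1.36 ± 0.16), the scavenger receptor Stab1 (-1.33 ± 0.17) and Il4ra (-1.08, and -0.96 without Control 16 h replicate 5, not called) fell, so the list had members called in both directions. Of 12 MHC class II and costimulation genes H2-Eb1 (-1.67 ± 0.29) and H2-Aa (-1.05 ± 0.22) were called lower, and H2-Aa was not called without Control 16 h replicate 5 (-0.96 ± 0.21). Lrp1, the endocytic receptor that the study tested for VWF, was at 646 to 1069 and 462 to 646 CPM (-0.52 ± 0.16; edgeR, adjusted p = 0.0217), a change below the fold threshold.

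**Figure D4:**
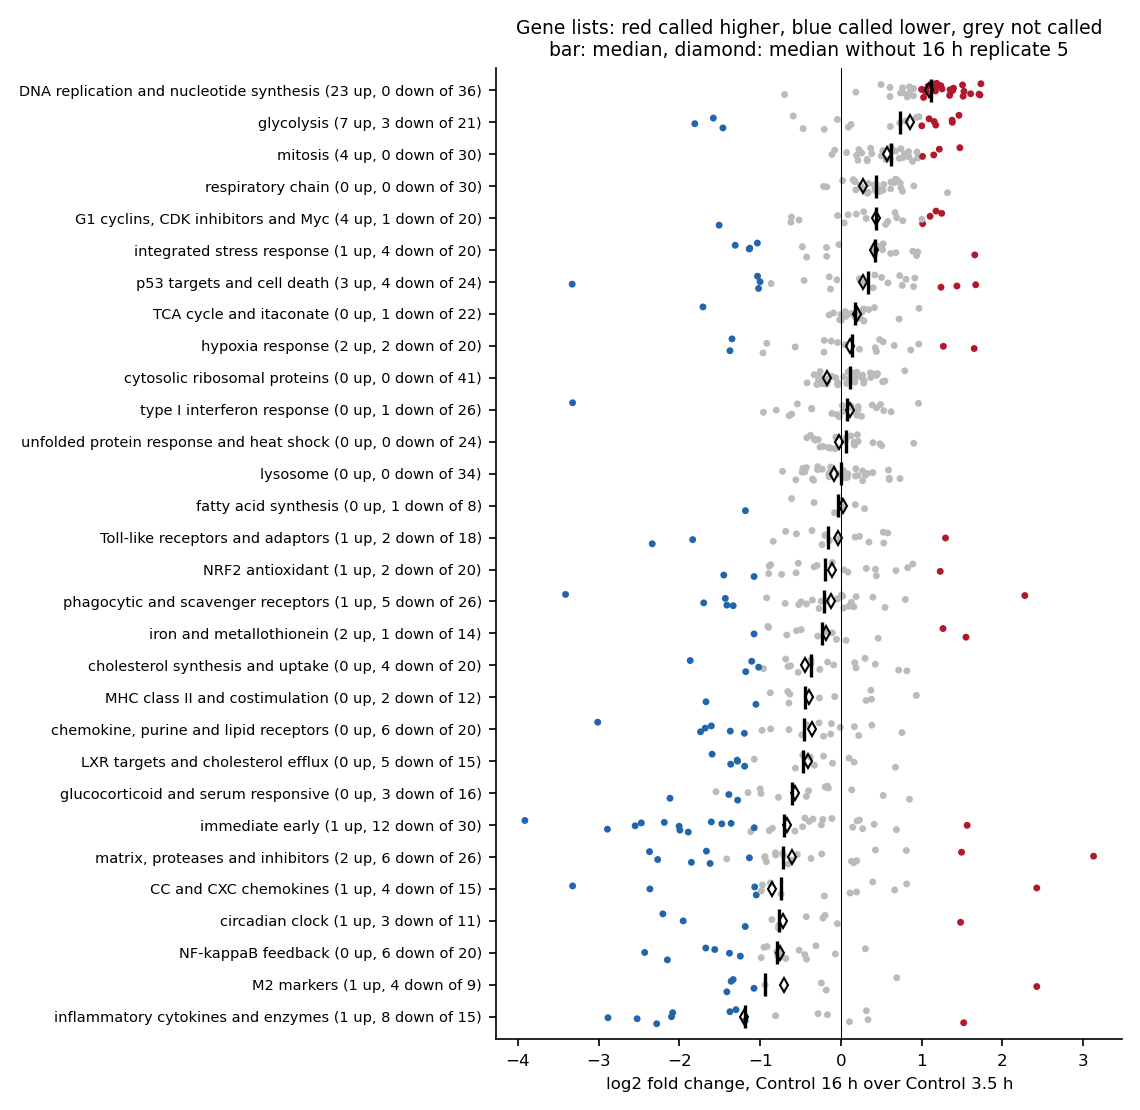
Log2 fold change of Control 16 h over Control 3.5 h (horizontal axis) for the tested members of 30 gene lists, ordered by their median; red points were called higher and blue points lower, bars are medians and diamonds medians without Control 16 h replicate 5. DNA replication and nucleotide synthesis stands at the top with a median of 1.11 and 23 of 36 members called higher, and inflammatory cytokines and enzymes at the bottom with a median of -1.19 and 8 of 15 members called lower.

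Glycolysis genes were split. Of 21 tested 7 were called higher and 3 lower, with a median of 0.73, and without Control 16 h replicate 5 the counts were 10 and 3 and the median 0.86. Pgk1, phosphoglycerate kinase, was at 389, 361, 341, 349 and 330 CPM at 3.5 h and at 1086, 1049, 910, 1007 and 549 CPM at 16 h (log2 fold change 1.38 ± 0.17), although 61.1% of its windows of 100 bases also occur in Gm5537. The lactate exporter gene Slc16a3 (1.46 ± 0.18), Aldoc (1.38 ± 0.11), Pfkm (1.18), Tpi1 (1.16), Eno1 (1.09) and Pfkl (1.00, called in 5 of 10 fits that left out 1 culture) were the other genes called higher. The 3 called lower were Pfkfb3, whose product makes the activator of phosphofructokinase (99.6 ± 17.7 to 28.4 ± 8.16 CPM, -1.81 ± 0.23), Eno2 (-1.58 ± 0.18) and the first enzyme's gene Hk2 (-1.46 ± 0.29). Pgk1 and Pfkfb3 were both lowest at 16 h in Control 16 h replicate 5.

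The hypoxia response list had 2 genes called in each direction of 20 tested, with a median of 0.14. That is 10.0% in each direction, against 4.0% higher and 5.09% lower of all genes tested. Pdk1, which keeps pyruvate out of mitochondria, rose from 28.9 ± 3.12 to 90.8 ± 15.6 CPM (log2 fold change 1.65 ± 0.14), and Ankrd37 rose by 1.27 ± 0.19, with 26.4% of its exons overlapping Lrp2bp. Vegfa (-1.37 ± 0.23) and the lipid droplet gene Hilpda (-1.35 ± 0.27) fell. Hif1a, the oxygen-regulated subunit of HIF-1, was at 128 to 184 and 63.2 to 87.6 CPM without overlap (-0.96 ± 0.13; edgeR, adjusted p = 0.000299), just under the fold threshold, and was called without Control 16 h replicate 5 at -1.01 ± 0.13. No member of the respiratory chain (30 tested, median 0.43, or 0.27 without that culture) was called by edgeR or DESeq2 (18 were higher and 0 lower at an unadjusted p under 0.05), and of 22 genes of the TCA cycle and itaconate synthesis only Acod1 was, the itaconate enzyme's gene, at 8.16 to 29.9 and 1.26 to 12.6 CPM (-1.71 ± 0.58, in 4 of 10 fits that left out 1 culture). With all cultures the median time change was 0.32 over all genes under 1000 bases of exon and 0.30 from 1000 to 2000 bases. The part of gene length in the respiratory chain list was not tested.

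Of 20 tested genes of cholesterol synthesis and uptake 4 were called, all lower, with a median of -0.37. Insig1, the sterol sensor that retains SREBP, was at 104, 144, 120, 117 and 113 CPM at 3.5 h and at 29.1, 33.2, 35.2, 31.7 and 34.4 CPM at 16 h (log2 fold change -1.87 ± 0.10; edgeR, adjusted p = 1.43e-06). Sqle, squalene epoxidase, was at -1.02, or -0.95 without Control 16 h replicate 5, where it was not called. The spread of Insig1 within each time was small, and Control 16 h replicate 5 lay among the other cultures. The LXR list, which covers cholesterol efflux, had 5 of 15 members called lower and none higher, among them Nr1h3 itself, the gene of LXRα (-1.36 ± 0.11), and 3 without Control 16 h replicate 5. Its member Abcg1 was higher at 16 h without overlap, at 47.4 to 59.9 and 65.5 to 107 CPM, but was not called. Fasn, fatty acid synthase, was at 44.8 ± 12.2 and 19.7 ± 3.62 CPM (-1.18 ± 0.20), the 1 member called of 8. Lpl, lipoprotein lipase, rose from 2527 ± 610 to 7094 ± 2687 CPM (1.5 ± 0.25), and at 11872 CPM Control 16 h replicate 5 was above the other 4 at 5663 to 6406 CPM (1.23 ± 0.16 without it).

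Of 26 tested genes of matrix, proteases and inhibitors 6 were called lower and 2, Spp1 and Lpl, higher. Tgm2, tissue transglutaminase, fell from 374 ± 98.7 to 72.4 ± 22.6 CPM (log2 fold change -2.37 ± 0.28, with 21.8% of its exons overlapping Gm20412), and the collagenase gene Mmp13 from 161 ± 13.3 to 44.5 ± 6.56 CPM (-1.85 ± 0.12). Timp3, an inhibitor of metalloproteases, was at 3.74 to 26.1 and 0.0387 to 4.29 CPM (-2.27 ± 0.79, with 21.3% of its exons overlapping Syn3), overlapped between the times and was called in 3 of 10 fits that left out 1 culture. It passed the filter through Control 3.5 h replicate 4 alone and was not tested without it. The summed stromal markers also differed between cultures, as given above, with Col1a1 (-0.79) and Col1a2 (-0.95) not called, and their part in this list was not tested.

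Clock genes had 11 tested members of 24, of which 3 were called lower and 1 higher (median -0.77). Without Control 16 h replicate 5 the counts were 4 and 1 (median -0.71). Usp2, a clock-controlled deubiquitinase, was at 22.7 to 28.2 and 4.95 to 5.82 CPM (log2 fold change -2.20 ± 0.10), Bhlhe40 (Dec1), a repressor, at 163 ± 23.0 and 42.0 ± 5.05 CPM (-1.95 ± 0.13), and the repressor gene Cry1 at 25.2 ± 3.94 and 11.1 ± 2.28 CPM (-1.18 ± 0.16). Nfil3, a repressor of D-box genes, rose from 8.34 ± 1.35 to 23.3 ± 3.69 CPM (1.48 ± 0.15). None of these 4 overlapped between the times. Bhlhe41 was at 126 to 138 CPM at 3.5 h. At 16 h it was at 127 CPM in Control 16 h replicate 5 and at 53.7 to 62.9 CPM in the other cultures. The core activators Arntl and Clock and the repressors Per2, Per3 and Cry2 did not pass the filter.

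Stress lists had few or mixed calls, where 4.0% of all genes tested were called higher and 5.09% lower. Among 24 p53 and cell death genes 3 were called higher, Trp53inp1 (log2 fold change 1.67 ± 0.14), Sesn1 (1.44 ± 0.18) and Bbc3 or PUMA (1.24 ± 0.17), while Gdf15, Fas (-1.03 ± 0.21), Mdm2 (-1.02 ± 0.10) and Bcl2l1 (-1.0, called in 4 of 10 fits that left out 1 culture) were called lower. The p53 targets on the list were thus called in both directions, and Mdm2 was not called without Control 16 h replicate 5 (-0.95 ± 0.08). Without that culture 4 members of the list were called higher and 3 lower. In the integrated stress response list Trib3 rose (1.66 ± 0.19) and Cebpb, Slc7a1, Slc7a5 and Nupr1 fell, of which Slc7a5 (-1.13) and Nupr1 (-1.03) were not called without Control 16 h replicate 5 (-0.97 and -0.85). Cebpb was at 481 CPM in Control 16 h replicate 5 against 115 to 165 CPM in the other 4 and 380 to 595 CPM at 3.5 h (-1.31 ± 0.40, and -1.91 ± 0.16 without it), and 20.7% of its exons overlap Tmem189. Of 20 NRF2 antioxidant genes Prdx1 rose (1.23 ± 0.17) and Gclc (-1.45 ± 0.13) and the heme oxygenase gene Hmox1 (-1.08 ± 0.13) fell, the last not called without that culture (-0.99 ± 0.10). The iron exporter gene Slc40a1 (ferroportin) rose from 36.2 ± 5.92 to 106 ± 23.2 CPM (1.55 ± 0.16), and the metallothionein gene Mt1 (1.27 ± 0.33) was called only with Control 16 h replicate 5, where it was at 2266 CPM against 647 to 997 CPM. No gene was called by edgeR or DESeq2 in the lists of cytosolic ribosomal proteins (41 tested), the unfolded protein response and heat shock (24) or the lysosome (34, with 1 called lower by edgeR without Control 16 h replicate 5). At an unadjusted p under 0.05 these lists had 0, 4 and 7 members higher and 6, 3 and 8 lower. Of 26 type I interferon genes 1 was called, Cxcl10.

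Time courses with VWF and with LPS share no culture with the Control comparison and show what 16 h against 3.5 h gave there. With VWF 1694 of 7927 genes were called (21.4%), and with LPS 1964 of 6987 (28.1%). Of the 632 genes called in Control and tested with VWF, 365 (57.8%) were called in the same direction and 29 in the opposite one, and the 365 were 24.8% of the 1469 VWF calls tested in Control. Of the 515 genes called in Control and tested with LPS, 200 (38.8%) were called in the same direction and 89 in the opposite one, which was 11.8% of 1702 LPS calls. Of 496 tested in all 3, 141 had the same direction throughout, 46 of them higher and 95 lower. Across genes, which are not independent replicates, the time changes of Control and VWF correlated at r = 0.57 (Spearman 0.62, 7600 genes) and those of Control and LPS at r = 0.23 (Spearman 0.22, 6572 genes).

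**Figure D5:**
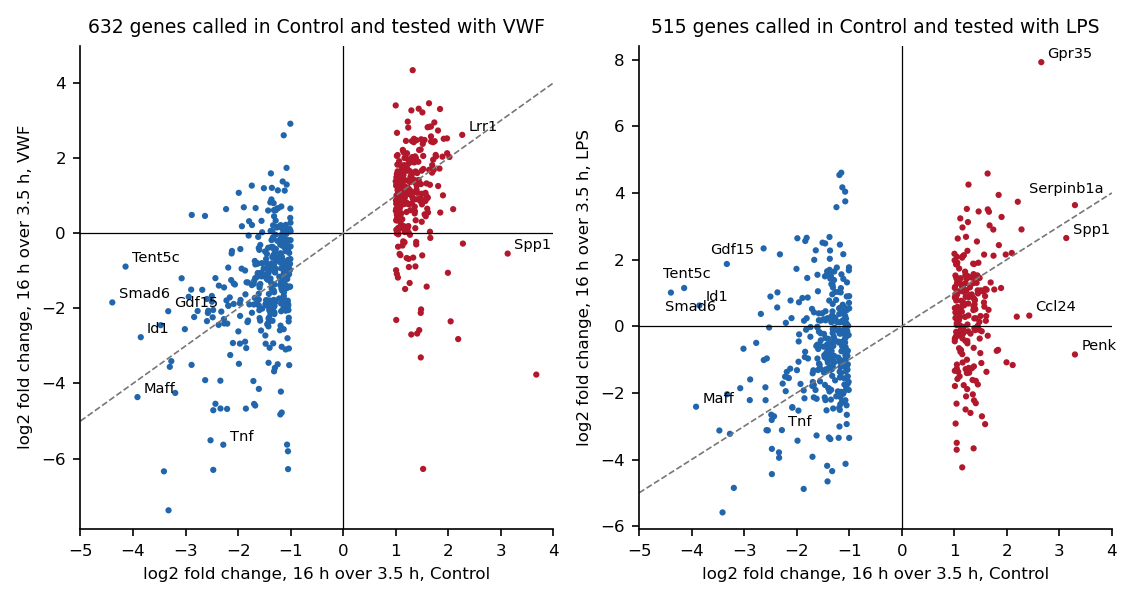
Log2 fold change of 16 h over 3.5 h in Control (horizontal axes) and with VWF (left) or LPS (right, vertical axes) for genes called in Control, coloured by their direction in Control; the dashed line marks equal changes. Of the 632 genes on the left 365 were called in the same direction with VWF, and of the 515 on the right 200 with LPS, where Smad6, Tent5c, Id1 and Gdf15 lie above 0.

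The time change itself differed from that of Control in 1166 of 8660 genes with VWF (13.5%) and in 2301 of 8748 with LPS (26.3%), by the interaction term of edgeR's quasi-likelihood test. Pdgfa was called lower in all 3 time courses, by -3.27 ± 0.18 in Control, -3.41 ± 0.30 with VWF and -3.23 ± 0.20 with LPS, and its differences from Control (-0.12 ± 0.35 and 0.05 ± 0.25) were not called. Smad6 changed by -1.84 ± 0.18 with VWF and by 1.01 ± 0.32 with LPS, and both differences from Control were called (2.55 ± 0.33 and 5.41 ± 0.44). Spp1, which rose in Control, changed by -0.54 ± 0.13 with VWF (not called in that time course; difference from Control -3.66 ± 0.20) and by 2.65 ± 0.22 with LPS. Cd14 fell by 2.70 ± 0.12 on the log2 scale with VWF, against the rise of 1.30 in Control.

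By list, calls with VWF or LPS were counted only among members that were also tested in Control. The denominators and medians cover all members tested with that agonist, so these counts are lower bounds. DNA replication genes were called higher with VWF in at least 33 of 37 tested (median 1.89), against 23 of 36 in Control. With LPS at least 1 was called higher and at least 11 lower of 20 (median -1.09). Of all genes tested 9.15% were called higher and 12.2% lower with VWF, and 14.6% and 13.5% with LPS. NF-κB feedback genes were called lower in at least 19 of 23 with VWF (median -3.24), against 6 of 20 in Control. With LPS at least 13 of 23 were called lower (median -1.24). Of the immediate early genes at least 16 of 26 were called lower and at least 4 higher with VWF. With LPS at least 6 of 30 were called lower and at least 4 higher, and these lower bounds lie near the shares of all genes. Glycolysis genes were called higher in at least 9 of 21 with VWF and at least 13 of 19 with LPS, against 7 of 21 in Control. Pfkfb3 and Vegfa, lower in Control, were called higher with LPS (2.65 ± 0.21 and 1.69 ± 0.30). The denominators differ because each time course had its own filter.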

How the data were processed

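RNA of 28 cultures was sequenced in pairs of 150 bases by the study. The authors mapped the reads with STAR to the mouse genome (GRCm38) and deposited raw counts per gene for 54532 Ensembl genes; the annotation release, the strand setting and the treatment of reads with several positions are unknown, being not given in the sources used here. Cultures were grouped by their labels. Genes were kept with at least 10 TPM in at least 1 culture of a comparison, with exon lengths from GENCODE of the same build. Counts were TMM-scaled and tested with edgeR 4.0.16 (robust quasi-likelihood test, R 4.3.3), fitted on the compared groups only, with Benjamini-Hochberg adjustment over all genes tested; calls needed an adjusted p under 0.05 and an absolute log2 fold change over 1. Differences between time courses were interaction terms of 1 fit. DESeq2 1.42.0, limma 3.58.1, other scalings, other filters, a replicate block and leaving out each culture were alternatives. The script was tested on simulated data. The total counts of the Control cultures ranged from 41131209 to 72349526, and depth sets counting error only. The labels call the numbered cultures biological replicates without saying what a number stands for, and the numbers were not taken as pairs.

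Named genes were, per gene list, up to 3 called members with the largest changes in each direction and textbook members; the 10 largest non-overlapping changes in each direction with a higher group mean of at least 1 CPM; genes the study names for inflammation and HIF-1, and Lrp1; and those whose call turned without Control 16 h replicate 5. Further called members are given by their fold change. The comparison and the lists were chosen with earlier results of these data known. Marker lists whose sums are not given in the report were at low sums in the Control cultures: monocyte at most 134 CPM, dendritic cell at most 17.5, B cell at most 14.5, mast cell and basophil at most 3.17, endothelium at most 11.1 and osteoclast at most 93.4 CPM. Some genes of these lists are not reported here by name.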

Additional observations from a re-analysis of the deposited data

Results flagged for a closer look

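Values of single cultures were compared with the other 4 of their group for 224 groups of values, and 26 lay apart by Dixon's criterion (critical value 0.710 for 5 samples); chance alone gives about 1 in 20. Control 16 h replicate 5 accounted for 13 of the 22 gene values and for 4 library measures: 16690 genes detected, 9.52% of counts in ribosomal protein genes, 28.5% of counts in the 50 most abundant genes and a TMM factor of 0.810. The genes checked were named in part for large changes in a fit that included this culture, so its 13 are not to be read against that share. It was the highest of its group for Arl4c (236 CPM), Birc5 (249 CPM), Ccl4 (194 CPM), Cebpb (481 CPM), Klf2 (73.9 CPM), Lpl (11872 CPM), Lrr1 (15.3 CPM), Mcm10 (37.9 CPM) and Mt1 (2266 CPM). It was the lowest for Gpr84 (0.368 CPM), Mdm2 (66.8 CPM), Mybl2 (7.02 CPM) and Pfkfb3 (13.9 CPM). Control 16 h replicate 4 was the highest for Acod1 (12.6 CPM), H2-Aa (26.1 CPM), Il1b (6.67 CPM), Il6 (0.340 CPM) and Nos2 (0.0647 CPM). In Control 3.5 h the apart values were Ccng2 in replicate 1 (15.5 CPM), Serpinb1a in replicate 2 (1.76 CPM), and Gpr35 (5.51 CPM) and Hk2 (95.7 CPM) in replicate 4.

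The change between 3.5 h and 16 h was looked up against that with VWF and with LPS for 30 genes, and the interaction term of edgeR's quasi-likelihood test was called for 21 and 20 of them. Values are the log2 change with the agonist minus that in Control. With VWF the differences of chemokine and cytokine genes were Il1b -7.78, Ccl24 -7.70, Il6 -7.05, Ccl4 -6.49, Ccl3 -5.23, Cxcl10 -4.05, Tnf -3.34 and Ccl2 -2.12. Nos2 was at -6.29, Serpinb1a at -5.32, Spp1 at -3.66, Olr1 at -2.93, Ppm1j at -2.72, Clec4n at -2.56, Penk at -2.48 and Car5b at -1.77. The positive differences with VWF were Tent5c 3.26, Gm14221 2.59, Smad6 2.55, Gdf15 1.26 and Id1 1.09. Il6 and Nos2 were near 0 counts in Control, so their fitted differences depend on the prior count.

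With LPS the positive differences were Smad6 5.41, Tent5c 5.29, Gpr35 5.28, Gdf15 5.20, Nos2 5.13, Id1 4.48, Egln3 3.03, Gm14221 2.55, Maff 1.51 and Cxcl10 1.28. The negative ones were Lrr1 -6.81, Penk -4.14, Ccl4 -2.97, Ppm1j -2.56, Olr1 -2.17, Ccl24 -2.10, Ccl3 -1.88, Il1b -1.65, Rnf144b -1.49 and Car5b -1.11.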

How the results depend on the processing

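Of the 757 genes called in Control, DESeq2 called 745 in the same direction (783 in all), median-of-ratios factors 753, library size scaling 692 and limma voom with sample weights 548; no alternative called one of them in the opposite direction. The counts moved most with the filter and the fold threshold. Without a filter on low values 1524 genes were called in Control, 3974 with VWF, 4298 with LPS, 1904 for the difference with VWF and 3613 for that with LPS, and with filterByExpr 1570, 3458, 4116, 1972 and 3790; these settings tested more genes. Without a fold threshold 3429 genes were called in Control, and 183 in a test against a fold of 2. Leaving out 1 culture gave 616 to 832 genes in Control, 1600 to 1735 with VWF, 1900 to 2098 with LPS, 1141 to 1197 for the difference with VWF and 2104 to 2683 for that with LPS; the 616 came without Control 3.5 h replicate 4. With the replicate number as a block the counts were 696, 1692, 1960, 1167 and 2261, of which 672 of the 696 were called without it; Birc5, Ccl3, Ccnd1, Icam1, Timp3 and Tlr9 lost their call. The labels do not say what the numbers stand for. Deviations of same-numbered Control cultures from their group means correlated at 0.08, -0.21, -0.17, 0.61 and -0.28 for numbers 1 to 5, only 1 of 5 over 0.1. The 16 h group mean includes Control 16 h replicate 5, which stood apart, so these correlations cannot decide whether the numbers mark pairs. The stromal marker sum was highest in replicate 1 of each group and the neutrophil sum without S100a8 in replicate 4, as given below. The main test did not use the number.

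Among called genes given above, leaving out 1 culture turned the call in 1 to 7 of 10 fits for Acod1, Bcl2l1, Birc5, Ccl3, Cdk2, Cebpb, Cxcl2, Egr1, Fas, H2-Aa, Hmox1, Icam1, Il1b, Il4ra, Mad2l1, Mdm2, Mt1, Nupr1, Pfkl, Slc7a1, Slc7a5, Sqle, Timp3 and Tlr9, with no change of direction, and Ccng2 was not called without Control 16 h replicate 5; Ccl4 and Hif1a gained a call. Under limma voom Birc5, Ccng2, Cxcl2, Egr1, Fasn, H2-Aa, Il1b, Mdm2, Mt1, Prdx1, Slc7a1 and Slc7a5 lost their call, and without a filter Acod1, Birc5, Egr1, Icam1, Il1b, Timp3 and Tlr9 did. The cause was not tested. Lif, Mcm10 and P2ry12 fell below the filter or the threshold in 1 fit each. The fits given for Il1b, Timp3 and Tlr9 include 1 each in which the gene was not tested. Genes near 10 TPM enter or leave the tests with single cultures, and Il6, Nos2 and Egln3 were too low to be tested.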

Other observations

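Several further decreases in Control, chosen after their values were seen, stood beside those of Smad6 and Id1. Id2, a relative of Id1, fell from 1260 ± 123 to 195 ± 87.2 CPM (log2 fold change -2.68 ± 0.26), Smad7, an inhibitor of TGF-β receptors, from 45.8 ± 3.57 to 8.46 ± 2.27 CPM (-2.43 ± 0.19), and Skil, a repressor of Smad-driven transcription, from 168 ± 14.9 to 28.3 ± 6.65 CPM (-2.57 ± 0.17). Pmepa1 fell by 3.07 and Jag1, a Notch ligand, by 2.5 on the log2 scale. In all 5 genes the cultures of the 2 times did not overlap, and the changes without Control 16 h replicate 5 were -3.0, -2.55, -2.44, -2.98 and -2.41 in the same order.

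The summed level of the 6 stromal markers was highest in replicate 1 of each of the 6 groups, at 317 and 184 CPM in Control 3.5 h and 16 h, 406 and 300 CPM with VWF and 206 and 351 CPM with LPS. It was lowest in replicate 3 of 4 groups, at 53.2 CPM in Control 3.5 h, 55.2 and 57.0 CPM with VWF and 54.1 CPM in LPS 3.5 h. In Control 16 h replicate 5 was lowest (17.6 CPM) and in LPS 16 h replicate 4 (67.2 CPM). The neutrophil markers without S100a8 were highest in replicate 4 of each of the 6 groups, at 10.7 and 8.27 CPM in Control 3.5 h and 16 h, 21.8 and 16.7 CPM with VWF and 21.0 and 12.0 CPM with LPS, where the highest of the other replicates were at 5.47, 6.11, 13.6, 12.4, 11.6 and 4.16 CPM in the same order.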
